A study of Mus musculus with 3 samples.

Results

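Glutamate that neurons release is cleared from the space around them largely by astrocytes, which take it up through sodium-driven transporters of the Slc1 family, turn it into glutamine with glutamine synthetase and export the glutamine for neurons to use again. The 9 genes followed here belong to this uptake and recycling route. They are Slc1a3 (GLAST), Slc1a2 (GLT-1) and Slc1a1 (EAAC1), which carry glutamate into cells, Slc1a4 and Slc1a5, relatives that exchange neutral amino acids, Slc38a3, a glutamine transporter, Glul, which encodes glutamine synthetase, Glud1, which encodes the mitochondrial glutamate dehydrogenase, and Slc7a11, which exchanges intracellular glutamate for extracellular cystine. They were picked by symbol among the probe sets that carry exactly 1 gene symbol, and all 9 were found, out of 22180 named genes on the array. Their 12 probe sets are single for 6 genes and 2 for each of Slc1a5, Glul and Slc7a11, and the mean log2 value was taken for these 3.

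The samples were 3 mouse cell preparations with 1 Affymetrix array each. Induced astrocytes (iAs) were mouse embryonic fibroblasts carrying a GFAP-GFP reporter, treated for 25 days with VCSTO, a mixture of OAC1, tranylcypromine, SB-431542, CHIR99021 and valproic acid, and sorted for GFP. The sort therefore selected cells in which the Gfap promoter drove the reporter, and the iA array describes the sorted fraction only. Primary astrocytes (pAs) came from mouse cortex at postnatal day 2, and mouse embryonic fibroblasts (MEFs) from mid-gestation embryos. The methods give the compounds to the iAs only, although the labels repeat the treatment text on every sample. There are no replicates, so no difference below carries a test, and a difference of at least 1.5-fold is called higher or lower only to sort the genes. The arrays hold log2 values after RMA, and the median over named genes was 7.12 on the iA array, 7.15 on the pA array and 7.17 on the MEF array. A level under its array's median is treated as dim, and a fold that reaches down to such a level is counted from the median and written as at least that much. In bulk RNA, fewer cells of a type and less RNA per cell cannot be told apart.

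The markers of the cell types bear on how the labels can be read. With levels under the median raised to it, 9.81% of all named genes lay at least 1.5-fold above MEFs and 8.77% below them in pAs, and 7.17% and 8.14% in iAs. Counted so, 9 of 12 astrocyte markers were higher and 0 lower in pAs, while in iAs 4 were higher and 3 lower. Gfap, the astrocyte filament gene used for the sort, read 11.72 on the iA array, 13.26 on the pA array and 7.80 on the MEF array in log2, and S100b, a glial calcium-binding protein, at 10.31, 7.61 and 6.40. Aqp4, the water channel of astrocyte endfeet, stood at 5.82, 12.20 and 6.80, and Aldh1l1, a folate enzyme that marks astrocytes, at 7.58, 11.42 and 8.58. Of 11 fibroblast markers, 9 were lower and 1 higher in iAs, and 10 were lower and 0 higher in pAs. Of 7 oligodendrocyte lineage markers, 3 were higher and 2 lower in pAs, and 3 were higher and 0 lower in iAs. Within this list Sox10 stood at 11.53 in iAs, 7.18 in pAs and 7.91 in MEFs, and Olig2 at 6.04, 9.92 and 6.39. Among 8 neuronal markers, iAs had 5 above MEFs and 0 below, and pAs 2 above and 1 below. Of 8 microglial markers, 0 were higher in either, with 3 lower in iAs and 2 in pAs. Endothelial markers showed 1 of 6 in each direction in both, and of 4 markers of choroid plexus and ependyma only Foxj1 was called, at 10.06 in pAs against 6.93 in iAs and 6.52 in MEFs. The part that such other cells may have in the levels below was not tested.

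In pAs, 6 of the 9 genes were at least 1.5-fold higher than in MEFs and 1 was lower, where 23.0% of the 22180 named genes were called, 2661 of them higher and 2449 lower (11.0% of all named genes). In iAs, 2 were higher and 3 lower than in MEFs, where 8.84% of all genes were higher and 10.0% lower. Between iAs and pAs, 7 of the 9 were lower and 0 higher in iAs, where 11.1% of all genes were lower and 8.67% higher. The median difference of the 9 genes was 0.77 for pAs minus MEFs, 0.00 for iAs minus MEFs and -1.69 for iAs minus pAs on the log2 scale, and the median of all named genes was 0.00 in each. The first pair of comparisons shares the MEF array, and the last shares an array with each of them. Of 27 differences, 3 for each gene, 19 reached 1.5-fold. With dim levels raised to the median, 17 did, without those of Slc1a1 between pAs and the other arrays. Members called in this way numbered 6 for pAs minus MEFs, 5 for iAs minus MEFs and 6 for iAs minus pAs, against 18.6%, 15.3% and 15.7% of all named genes. Those 6 were lower in iAs than in pAs, as were 8.98% of all named genes, and 6.68% were higher.

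**Figure D1:**
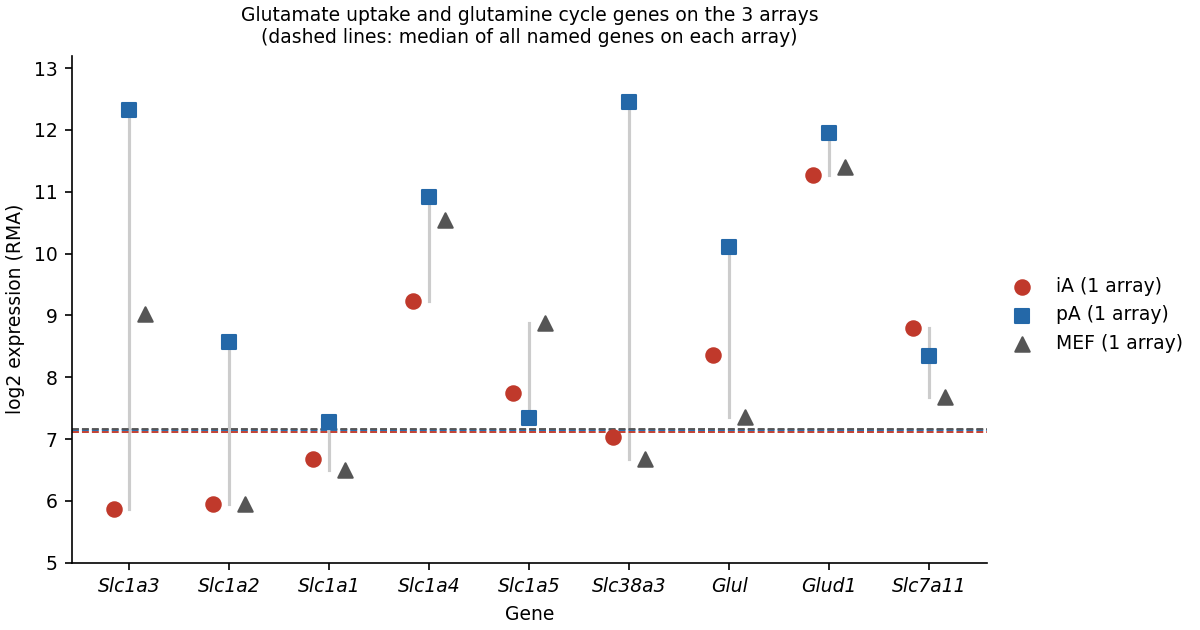
Level of each of the 9 genes (x axis) on each array (y axis, log2 expression after RMA), with 1 point per array and grey lines from the lowest to the highest array. The pA array is the highest for 7 of the 9 genes, and Slc1a3, Slc1a2, Slc1a1 and Slc38a3 lie under the median in iAs.

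Slc1a3 encodes GLAST, a glutamate transporter of astrocytes and of their radial glial precursors. Its log2 level was 12.32 in pAs, 9.02 in MEFs and 5.88 in iAs. The 3 cell types thus lay apart, with MEFs between pAs and iAs and with iAs below their array's median. Slc1a3 was 9.84-fold above MEFs in pAs and at least 3.73-fold below them in iAs, which puts iAs at least 36.7-fold below pAs. As deposited, the difference between iAs and pAs was -6.44 on the log2 scale, but its size rests on an iA level under the median.

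Slc1a2 encodes GLT-1, the main glutamate transporter of the mature forebrain. Its log2 level was 8.57 in pAs and 5.96 in both iAs and MEFs, which are equal to the last digit deposited. Exactly equal values on these arrays are common, at 28.9% of all 41345 probe sets for iAs and MEFs, so the tie does not measure how alike these cells are. In pAs, Slc1a2 exceeded the other arrays by at least 2.64-fold (MEFs) and at least 2.73-fold (iAs). In iAs and MEFs it lay under the medians.

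Slc1a1 encodes EAAC1, the glutamate transporter of many neurons, kidney and gut. Its log2 level was 7.28 in pAs, 6.69 in iAs and 6.51 in MEFs. All 3 levels lay close to or under the median. The deposited differences were 0.77 for pAs minus MEFs and -0.59 for iAs minus pAs, but counted from the medians they were 0.10 and -0.15, under 1.5-fold. None of the 3 glutamate carriers was higher in iAs than in MEFs by 1.5-fold, and none was above the iA median. By real-time PCR, the study reports Slc1a2, Slc1a3, Aqp4, Aldh1l1, Gfap and S100b as high in VCSTO-treated cells relative to MEFs. It also reports more glutamate uptake by iAs than by MEFs. On the array, Gfap and S100b were likewise higher in iAs than in MEFs, by 15.1-fold and at least 8.80-fold. The array values of Slc1a2, Slc1a3, Aqp4 and Aldh1l1 differ from the PCR report, and the reason was not tested. The array holds GFP-sorted cells, while the study does not state that the cells for this PCR were sorted.

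Slc38a3 encodes SNAT3, which moves glutamine across the astrocyte membrane together with sodium. Its log2 level was 12.46 in pAs, 7.04 in iAs and 6.68 in MEFs. Only the pA array lay above its median. In pAs, Slc38a3 exceeded MEFs by at least 39.0-fold, and iAs by at least 40.4-fold. Between iAs and MEFs the difference was 0.36, with both levels under the medians.

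Glul encodes glutamine synthetase, which makes glutamine from glutamate and ammonia and which in brain is mostly an astrocyte enzyme. Its mean log2 level was 10.11 in pAs, 8.36 in iAs and 7.36 in MEFs. By these means it was the only one of the 9 genes whose iA level stood between those of the other arrays with a gap of at least 1.5-fold on either side. Against MEFs, Glul was up 6.72-fold in pAs and 2.0-fold in iAs, and iAs held 3.36-fold less than pAs. Its brighter probe set read 12.55, 10.58 and 9.57 in pAs, iAs and MEFs, and the dimmer one 7.66, 6.13 and 5.15. The brighter probe set put iAs 1.01 above MEFs on the log2 scale, while the dimmer one lay under the medians in iAs and MEFs and gives no order for that pair. Glud1, whose enzyme links glutamate to the citric acid cycle through 2-oxoglutarate, stood at 11.95 in pAs, 11.26 in iAs and 11.39 in MEFs. Between iAs and pAs it differed by -0.68, and it differed from MEFs by less than 1.5-fold in both.

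Slc1a4 encodes ASCT1, an exchanger of serine, alanine and other small neutral amino acids. Its log2 level was 10.92 in pAs, 10.55 in MEFs and 9.23 in iAs. All levels lay above the medians, and iAs stood below both other arrays. In iAs, Slc1a4 was 2.49-fold under MEFs and 3.22-fold under pAs, and pAs and MEFs differed by 0.37.

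Slc1a5 encodes ASCT2, an exchanger that brings glutamine into many dividing cells. Its mean log2 level was 8.87 in MEFs, 7.74 in iAs and 7.34 in pAs. It was the only one of the 9 genes that was lower in pAs than in MEFs, by 2.89-fold, and iAs were 2.19-fold under MEFs. Its probe sets disagree. One read 10.43 in MEFs, 8.17 in iAs and 7.36 in pAs, and the other 7.32 on all arrays. Values equal on all 3 arrays occur at 20.1% of all probe sets, so the flat reading does not measure how alike the cells are. By the brighter probe set alone Slc1a5 lay 4.78-fold under MEFs in iAs and 8.36-fold in pAs, with iAs 1.75-fold above pAs and, as for Glul, between the other arrays, so the mean understates what that probe set reads.

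Slc7a11 encodes xCT, the light chain of the exchanger that imports cystine for glutathione synthesis and puts glutamate out of the cell. Its mean log2 level was 8.79 in iAs, 8.35 in pAs and 7.68 in MEFs. It was the only one of the 9 genes with its highest level in iAs. Slc7a11 exceeded MEFs 2.17-fold in iAs and 1.59-fold in pAs, and iAs and pAs differed by 0.44. The brighter probe set read 10.76, 10.13 and 9.30 in iAs, pAs and MEFs, and the dimmer one 6.83, 6.58 and 6.06. By the brighter probe set iAs were 1.56-fold above pAs, and the dimmer one lay under the median on every array.

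**Figure D2:**
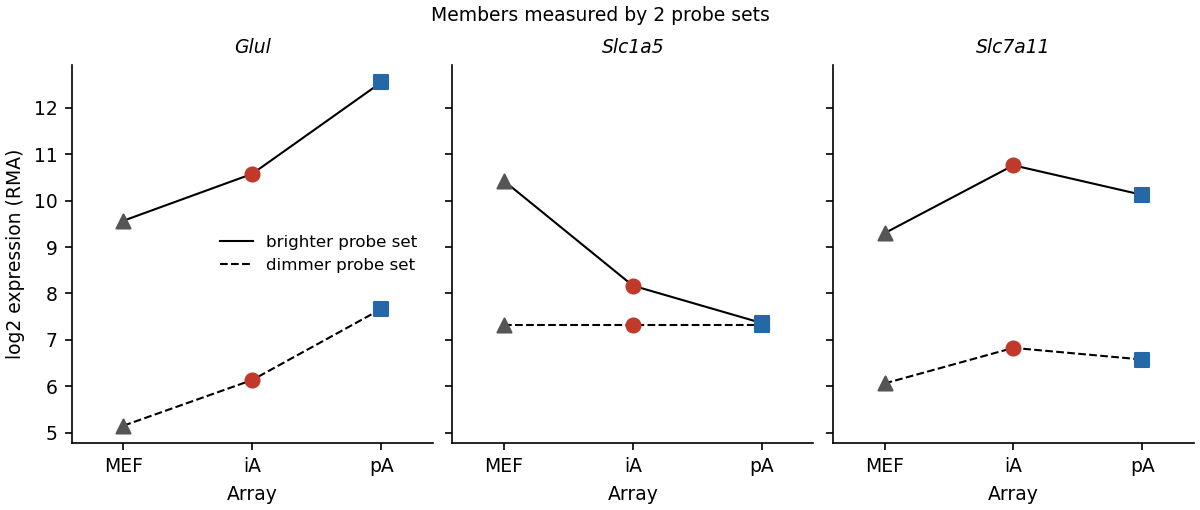
Log2 expression after RMA (y axis) of the brighter (solid line) and dimmer (dashed line) probe set of Glul, Slc1a5 and Slc7a11 on the MEF, iA and pA arrays (x axis), with 1 point per array. The brighter probe set of Glul is highest in pAs and that of Slc7a11 in iAs, and the dimmer probe set of Slc1a5 reads 7.32 on every array.

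**Figure D3:**
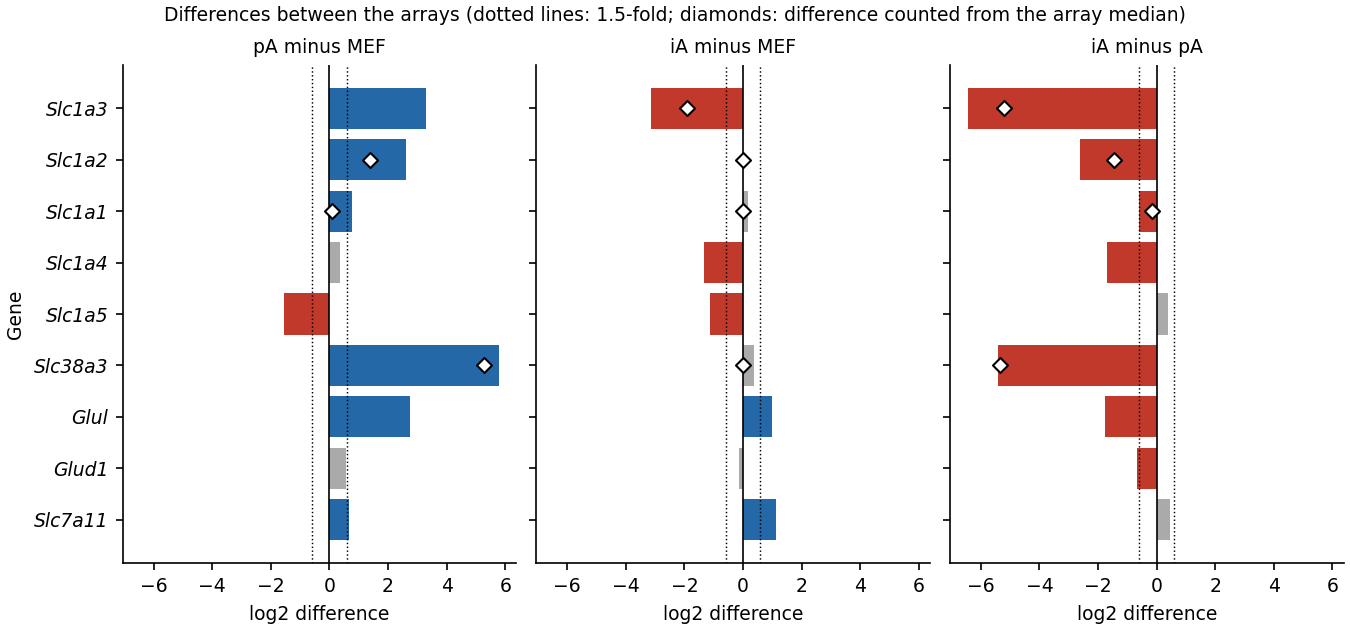
Log2 difference (x axis) of each gene (y axis) for pAs minus MEFs, iAs minus MEFs and iAs minus pAs, from 1 array per cell type. Blue bars are at least 1.5-fold higher, red bars at least 1.5-fold lower and grey bars between, and white diamonds give the difference counted from the array median where the lower level is under it. In the right panel 7 bars are red and 0 are blue.

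Patterns over the 3 arrays were compared with those of 11842 genes that reached the median on at least 1 array and have no placeholder symbol. Measured as the Euclidean distance between the iA minus MEF and pA minus MEF differences, the genes nearest to Slc38a3 were Hepacam, which encodes the glial adhesion protein GlialCAM, at a distance of 0.17, Slc39a12, a zinc transporter, at 0.45 and Sorl1, a sorting receptor of the endosome, at 0.47. Hepacam stood at log2 levels of 12.78 in pAs, 7.36 in iAs and 6.88 in MEFs. For Glul, the nearest were Tspan15, a tetraspanin, at 0.13, Neto2, an auxiliary subunit of kainate receptors, at 0.13 and Cfap47, a ciliary protein, at 0.14. Among the genes searched none lay as near to Slc1a3, the closest being Gpm6a, a membrane glycoprotein of neurons and glia, at 1.09, Igfbp5, which binds insulin-like growth factors, at 1.15 and Steap4, a metalloreductase, at 1.26. Gpm6a stood at 12.76 in pAs, 8.93 in MEFs and 6.74 in iAs, the same order as Slc1a3. With 1 array per cell type these distances, which use the deposited differences also at dim levels, describe the arrays and carry no test.

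Around these genes, 80 measured genes on 7 lists of the wider pathway were counted in the same way. In pAs 23 lay above MEFs and 18 below them, in iAs 17 above and 21 below, and between iAs and pAs 10 were higher and 25 lower in iAs. Called in either direction were 51.2%, 47.5% and 43.8% of them, against 23.0%, 18.9% and 19.8% of all named genes in the same order. The medians of the 80 genes were 0.00, -0.07 and -0.09. These counts, and those of the lists below unless stated, use the deposited differences also at dim levels. With levels raised to the median, 22 lay above MEFs and 17 below in pAs, and 14 above and 19 below in iAs. Between iAs and pAs, 8 were then higher and 23 lower in iAs. Called in this way in either direction were 18.6%, 15.3% and 15.7% of all named genes in the same order.

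Relative to MEFs, 1 of 11 other carriers of glutamate was higher and 2 were lower in pAs, and 2 lay in either direction in iAs. Over all named genes, 23.0% were called in pAs and 18.9% in iAs. Slc1a7, Slc17a6, Slc17a7, Slc17a8 and Slc7a13 were dim on every array and give no order. Slc25a22 read 8.96 on every array, a tie that does not measure how alike the cells are. The carrier that was higher in pAs was Slc25a18, which takes glutamate into mitochondria, with log2 levels of 12.74 in pAs, 6.24 in iAs and 6.60 in MEFs. It was at least 47.7-fold above MEFs in pAs. Counted from the median, its difference between iAs and pAs was -5.62, beside -5.34 for Slc38a3 and -5.20 for Slc1a3. Slc25a13, the mitochondrial aspartate and glutamate carrier citrin, was at least 2.24-fold below MEFs in iAs and 1.52-fold in pAs, and Slc1a6, the glutamate transporter of Purkinje cells, was under MEFs by 2.25-fold in iAs and 1.87-fold in pAs. Slc17a5, the lysosomal carrier sialin, was 1.86-fold above MEFs in iAs, and iAs were 1.51-fold above pAs.

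Of 13 other transporters of glutamine and related amino acids, 5 lay below MEFs and 1 above them in iAs, and 4 below and 2 above in pAs. The 1 above in iAs was dim on every array, and with levels raised to the median 0 were above. Slc38a1, a glutamine importer best known from neurons, stood at 11.79 in pAs, 10.68 in MEFs and 8.49 in iAs. The order of the cell types was that of Slc1a3, with Slc38a1 2.16-fold above MEFs in pAs and 4.56-fold below them in iAs. Slc38a4, a system A transporter, lay under MEFs by at least 22.8-fold in pAs and 23.4-fold in iAs, and Slc7a6, a subunit that exchanges cationic and neutral amino acids, was 2.67-fold and 2.95-fold lower.

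Of 21 other enzymes that make or use glutamate or glutamine, 8 lay below MEFs and 3 above them in pAs, and 8 below and 1 above in iAs. Bcat1, the cytosolic transaminase of branched-chain amino acids, was 10.9-fold under MEFs in pAs and 9.17-fold in iAs. Asns, asparagine synthetase, which spends glutamine, was 5.51-fold and 3.30-fold lower, and Aldh18a1, which makes proline precursors from glutamate, was 3.81-fold and 5.06-fold lower. Abat, the GABA transaminase, was 2.33-fold higher in pAs and differed by -0.14 in iAs.

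Of 11 genes that pair with Slc7a11 or belong to glutathione synthesis and its regulation, 4 lay above MEFs and 3 below them in pAs, and the counts were equal in iAs. With levels raised to the median, 2 lay below MEFs in each. Gclc, the catalytic subunit of glutamate-cysteine ligase, the enzyme that starts glutathione synthesis from glutamate and cysteine, exceeded MEFs 7.29-fold in pAs and 3.57-fold in iAs. Its partner Gclm was 3.04-fold and 2.10-fold higher. Slc3a2, the heavy chain that holds xCT at the cell surface, stood at 13.10 in pAs, 12.22 in iAs and 12.79 in MEFs, so that it did not follow Slc7a11 upward in iAs. Chac1, an enzyme that breaks glutathione down, was under MEFs by 2.59-fold in iAs and 1.78-fold in pAs.

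Of 9 subunits and modulators of the sodium pump, whose gradient drives the Slc1 transporters, 5 lay above MEFs and 1 below them in pAs, and 3 above and 1 below in iAs. With levels raised to the median, 4 lay above MEFs in pAs. Atp1b2, the glial beta subunit of the pump, exceeded MEFs by log2 differences of 4.70 in pAs and 3.17 in iAs. Fxyd6, a modulator of the pump, stood at 11.37 in pAs, 9.81 in MEFs and 6.53 in iAs, and Fxyd5 in the reverse order of pAs and iAs, at 7.41, 10.37 and 11.32. Of 9 proteins that bind or regulate Slc1 transporters, 5 were higher and 0 lower in pAs, and 4 were higher and 1 lower in iAs. Ndrg2, an astrocyte protein, exceeded MEFs 8.36-fold in pAs and 2.08-fold in iAs, Ezr, the membrane linker ezrin, was 4.07-fold and 2.02-fold higher, and Ajuba, a LIM protein that binds GLT-1, was 1.65-fold above MEFs in pAs and 2.21-fold below them in iAs. Of 6 glutamate receptor genes, 3 were higher in pAs and 2 were higher and 1 lower in iAs. The iA calls all involve dim levels, and with these raised to the median 0 were higher and 0 lower in iAs, and 3 higher in pAs. The AMPA receptor subunit gene Gria2 exceeded MEFs by at least 3.12-fold in pAs and, counted from the median, by at least 1.15-fold in iAs. Gria1 stood at 8.48 in pAs, 7.54 in MEFs and 6.68 in iAs, and Grik5, a kainate receptor subunit, was 2.60-fold higher in pAs.

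**Figure D4:**
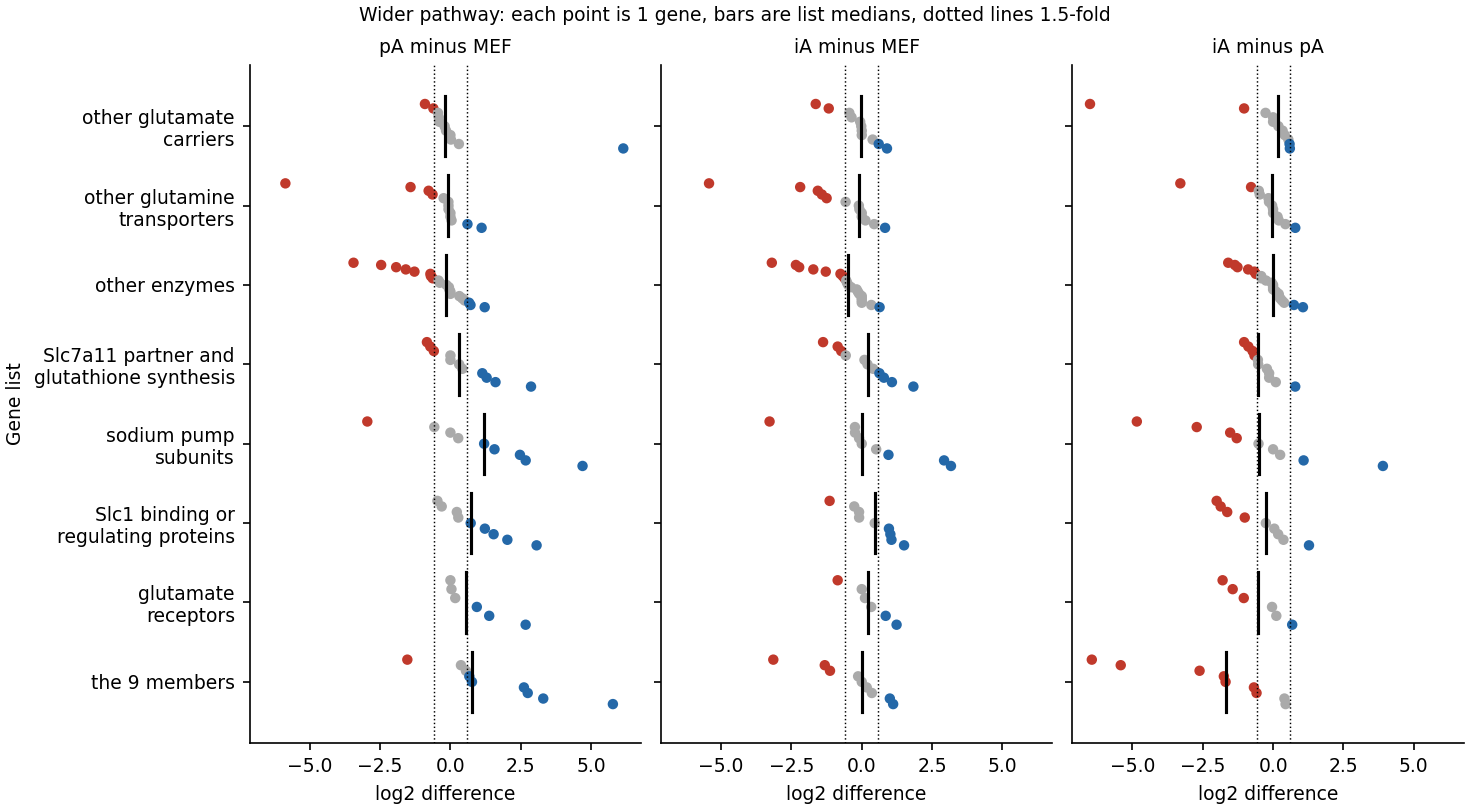
Log2 differences (x axis) of the genes of each wider list and of the 9 members (y axis) for pAs minus MEFs, iAs minus MEFs and iAs minus pAs. Each point is 1 gene, blue at least 1.5-fold higher, red at least 1.5-fold lower and grey between, and black bars are medians. The members' median lies at -1.69 for iAs minus pAs, and Slc25a18 is the red point at -6.51 there.

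The windows around the start sites were read for sequence features, since several of these genes moved together and others apart. RefSeq windows on GRCm38.p6, from 250 bases before to 50 after a start, matched 7 of the 9 genes, all but Slc38a3 and Slc1a5. Those of Slc1a2 and Slc7a11 belong to a start inside the annotated gene, not to its outermost 5′ end. The Slc1a3 window is shown because this gene had the largest deposited difference between iAs and pAs among the members with a window. It lies at chr15:8710758-8711057 on the minus strand, and its CpG dinucleotides are in capitals.

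Slc1a3: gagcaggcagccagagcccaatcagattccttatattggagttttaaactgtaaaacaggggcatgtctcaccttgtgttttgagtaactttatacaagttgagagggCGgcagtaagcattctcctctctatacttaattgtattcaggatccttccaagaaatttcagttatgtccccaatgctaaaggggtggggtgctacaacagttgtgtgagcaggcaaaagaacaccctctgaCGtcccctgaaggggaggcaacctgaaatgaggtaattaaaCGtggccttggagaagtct

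It holds 3 CpG sites, 0.197 of the number its base composition would give, where the window of Slc1a1, the glutamate carrier that differed least, holds 32 at a ratio of 0.864. The other windows at a gene's 5′ end had ratios of 0.559 for Glul, 0.666 for Slc1a4 and 1.04 for Glud1, and the windows at inner starts 0.0641 for Slc1a2 and 0.271 for Slc7a11. The gap between the highest and lowest array was 6.44 for Slc1a3, 2.75 for Glul, 2.61 for Slc1a2, 1.69 for Slc1a4, 1.12 for Slc7a11, 0.77 for Slc1a1 and 0.68 for Glud1. Over these 7 genes the ratios and the gaps did not run in one order, since Slc1a2 had the lowest ratio and Slc7a11 a low ratio with a small gap. Over the measured genes with a window at the annotated 5′ end, the median gap was 0.46 for 6718 genes with a ratio above 0.6. It was 0.13 for 7394 genes with a ratio of 0.6 or less. Genes dim on every array were not left out of these medians, while Slc1a2 and Slc7a11, with windows at inner starts, were.

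Slc7a11 and Slc1a4 are shown because their windows share a motif while they differed in opposite directions between iAs and MEFs. The motif is TGATGNAA, searched on both strands, the core of the element bound by ATF4, the factor that turns on amino acid transport and synthesis genes when amino acids run short. It is in capitals below. The Slc7a11 window is chr3:50443564-50443863 and the Slc1a4 window chr11:20332664-20332963, both on the minus strand.

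Slc7a11: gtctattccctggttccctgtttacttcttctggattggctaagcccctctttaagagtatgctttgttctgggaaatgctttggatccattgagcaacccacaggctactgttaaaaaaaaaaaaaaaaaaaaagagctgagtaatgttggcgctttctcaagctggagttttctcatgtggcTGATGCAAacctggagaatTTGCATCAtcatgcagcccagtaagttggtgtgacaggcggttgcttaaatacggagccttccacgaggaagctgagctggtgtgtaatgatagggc

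Slc1a4: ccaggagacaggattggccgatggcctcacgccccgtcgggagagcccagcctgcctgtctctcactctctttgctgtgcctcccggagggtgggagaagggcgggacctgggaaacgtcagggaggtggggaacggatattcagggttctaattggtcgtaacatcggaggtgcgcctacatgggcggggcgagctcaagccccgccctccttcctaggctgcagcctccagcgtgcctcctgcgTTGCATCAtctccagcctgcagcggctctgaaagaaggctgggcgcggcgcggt

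The motif stood at 2 places in the Slc7a11 window, in opposite orientations, and at 1 place in that of Slc1a4. Of all 32851 windows, 3.97% hold it at least once and 0.0700% at 2 or more places. Among the 72 measured genes of the members and wider lists with a window, it was found in 5, the others being Asns, Chac1 and Got1, the cytosolic aspartate transaminase. This count is per gene and some genes have more than 1 window, so it cannot be set directly against the 3.97% of windows. In iAs, 4 of the 5 were at least 1.5-fold lower than in MEFs. With or without a window, so were 3 of the 9 members, 21 of the 80 wider genes and 10.0% of all named genes. The log2 differences were -1.72 for Asns, -1.37 for Chac1, -1.31 for Slc1a4 and -0.76 for Got1, and Slc7a11 was higher by 1.12. In pAs the differences from MEFs were -2.46, -0.83, 0.37, -0.14 and 0.67 in that order. Atf4 itself differed from MEFs by -0.86 in iAs and -0.72 in pAs. The NRF2 element TGACNNNGC, found in 12.4% of all windows, was in none of the 7 member windows. The motifs were chosen after the values had been seen, and a match is a description of the letters in these windows.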

How the data were processed

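The authors hybridised total RNA of 1 sample per cell type to Affymetrix Mouse Gene 2.0 ST arrays and deposited 1 log2 value for each probe set and array, computed with RMA in Partek Genomics Suite (version not given in the sources used here). RMA corrects background, gives the arrays a common distribution and summarizes the probes. The processing notes also name MAS5. Raw intensities were not used, so these steps could not be varied.

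Of 41345 probe sets, 23521 carry 1 symbol, 1820 several and 16004 none in GEO's platform annotation. The Entrez IDs of all 9 members were found in RefSeq. Log2 values were averaged per gene, and differences were taken for each pair of arrays with Python 3.11.15, numpy 2.4.6 and pandas 2.3.3. The 1.5-fold threshold is that of the study's methods. With 1 array per cell type no test was possible, and the number of arrays limits the precision. The arithmetic of the calls was checked on simulated data with planted folds, which says nothing about the spread between real arrays.

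The members and lists were chosen with earlier results of these data known. Of each wider list the text names the 3 genes with the largest difference in any comparison whose higher level reached its array's median, and the largest of the other sign. For the 3 members that differed most, the 3 genes nearest in pattern are named, passing over placeholder symbols. Genes named outside this rule (Slc3a2, Atf4, Got1 and the markers) were chosen after their values were seen. The alternatives were quantile normalization, centring, a linear offset of 32, a filter on dim genes, levels raised to the median, a lower and a higher fold threshold, the brightest probe set, and probe sets with several symbols.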

Additional observations from a re-analysis of the deposited data

Results flagged for a closer look

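Slc1a3 and 5 genes of the wider pathway had deposited differences from MEFs of at least 1.5-fold in opposite directions in iAs and pAs. Counted from the median, Gria1 fell short of 1.5-fold in iAs, at -0.42. With 1 array per cell type, the difference between the effects was not tested. Slc1a3 differed from MEFs by -3.14 in iAs, or -1.90 counted from the median, and 3.30 in pAs on the log2 scale, and Slc38a1 by -2.19 and 1.11. Fxyd6 differed by -3.28 in iAs, or -2.69 counted from the median, and 1.57 in pAs, and Fxyd5 by 0.95 and -2.95. Ajuba differed by -1.14 in iAs and 0.72 in pAs, and Gria1 by -0.86 and 0.94.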

How the results depend on the processing

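Of the 19 member differences that reached 1.5-fold, 16 stayed past it under all 7 alternatives that keep this threshold, and none changed sign. The exceptions were Slc1a1 for pAs minus MEFs (0.10 with levels raised to the median), Slc1a1 for iAs minus pAs (-0.58 after quantile normalization, -0.52 after centring, -0.47 with the linear offset and -0.15 with levels raised) and Slc7a11 for pAs minus MEFs (0.58 with the offset). Glud1 for pAs minus MEFs passed the threshold after quantile normalization (0.63). With the brightest probe set, 2 members, Slc1a5 (0.81) and Slc7a11 (0.64), were higher in iAs than in pAs in place of 0. At the lower fold threshold this count was also 2, and 16 wider genes were higher in iAs than in pAs in place of 10. At a fold of 2, 1 member (Slc7a11) was higher in iAs than in MEFs in place of 2, Glul falling just short at 0.998, and the members' median of 0.77 for pAs minus MEFs lay under the threshold. Wider genes at a fold of 2 numbered 8 lower in pAs than in MEFs in place of 18, 8 higher in iAs than in MEFs in place of 17 and 4 higher in iAs than in pAs in place of 10. Fewer genes reach a higher threshold by construction. No paired analysis was possible because each cell type has 1 array, and no replicate could be left out. Levels under the array median cannot be ordered with confidence, as no detection calls were used.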
